A study of Mus musculus with 12 samples.

Results

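The genes of the cytosolic ribosomal proteins were described across Sertoli cells that lack the RNA-binding protein PTBP1 and across RNA that co-precipitated with PTBP1. Members were taken by symbol from both deposited count tables: Rpl and Rps names with their paralog letters, Rplp0, Rplp1, Rplp2 and Rpsa, without pseudogenes, Rps6k kinases and predicted genes. The table of sorted cells held 88 members among 49585 genes, of which 52 belong to the large and 36 to the small subunit, and the table of cultured cells held 83 of them among 21823 genes. Enough counts for a test were present for the same 82 members in both. The study has 12 libraries in 4 groups of 3. The first group is cKO Sertoli cells sorted from testis (AmhCre with both Ptbp1 alleles floxed, and the mTmG reporter), and the second is sorted control Sertoli cells, which carry AmhCre and mTmG too but have 1 floxed and 1 wild-type Ptbp1 allele. AmhCre is a Cre recombinase under the promoter of Amh, a gene of immature Sertoli cells. The third group is RNA precipitated with PTBP1 from cultured primary WT Sertoli cells (PTBP1 IP), and the fourth is the input RNA of such cells. The sorted libraries were made from poly(A) RNA and the cultured ones from total RNA. No age of the animals and no precipitation with a control antibody is given. Whether the 3 libraries of a group derive from separate animals or separate cultures is not given. Names of the cultured libraries hold a number that the first and second library of each group share and the third does not. What that number stands for is not given either. P-values therefore measure the spread between these libraries, which may be technical.

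Each ribosome holds 1 copy of nearly every ribosomal protein, so cells make these proteins in matched amounts, and their mRNAs are among the most abundant of a growing cell. Their transcripts typically start with a run of pyrimidines, the 5′ terminal oligopyrimidine (TOP) tract, through which the kinase mTOR and the protein LARP1 control their translation as a class. PTBP1 binds pyrimidine-rich RNA, mostly in introns and 3′ untranslated regions, and is best known as a repressor of exons. Sertoli cells, the somatic cells that nurse the germ line in the seminiferous tubule, secrete large amounts of protein and depend on this machinery.

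Total counts per library were between 11980474 and 13750181 in the sorted table, between 26725003 and 28796396 in PTBP1 IP and between 12894035 and 15315115 in input. Ptbp1 itself had 7.71, 7.99 and 7.64 CPM (counts relative to the scaled library size) in cKO cells, against 249, 251 and 241 CPM in control cells, 31.7-fold lower. The 20 markers of Sertoli cells were all detected in every sorted library and summed to between 17811 and 19066 CPM in cKO, against 23753 to 25126 CPM in control. The 12 markers of spermatocytes, all detected as well, summed to between 639 and 687 CPM in cKO, against 340 to 509.6 CPM in control. In bulk libraries fewer cells of a type and less RNA per cell cannot be told apart. Within both sorted groups the third library was the furthest from the others over all genes: the second principal component was -25.8 in the third cKO and -16.1 in the third control library, against 4.28 to 20.4 in the other 4. In ribosomal protein genes the third cKO library differed from the rest of its group. Its 6 endothelial markers summed to 21.98 CPM, against 6.34 to 6.44 CPM in the other two cKO libraries and 7.41 to 12.5 CPM in control. Its 5 red blood cell markers summed to 55.1 CPM, against 21.5 to 23.7 CPM in the other two and 33.8 to 62.0 CPM in control, so they lie within the control range. Its Leydig markers summed to 89.8 CPM, against 72.1 and 73.0 CPM in the first and second cKO libraries and 52.4 to 55.0 CPM in control. Its myoid markers summed to 256 CPM, against 220 and 205 CPM in those cKO libraries. In control they summed to 345 to 363 CPM, so the third cKO library lies below the control range. Macrophage markers went the other way, with 85.3 CPM against 148 and 150 CPM in those cKO libraries and 107 to 129 CPM in control. The part of these markers in the results below was not tested, and the results are given with and without the third cKO library. In cultured cells the 20 Sertoli markers summed to between 11823 and 12912 CPM in PTBP1 IP and between 15335 and 16651 CPM in input. The sum follows the most abundant markers. Of 19 tested, 12 were higher and 7 lower in PTBP1 IP by edgeR, with a median log2 fold of 0.38. Over all tested genes 43% were higher and 44.8% lower.

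Of the members, 63 matched a start in RefSeq's promoter table (GRCm38.p6). The longest run of C and T that touched the 100 bases around the annotated start had a median length of 10 bases in members, against 7 bases over all 27025 genes of the table. A run of 8 bases or more was found in 84.1% of members (53 of 63) and in 41.4% of all genes. The letters CTTTC, searched on the gene's strand only, stood in that window in 50.8% of members (32 of 63) and in 14.6% of all genes. A match is itself a stretch of C and T, so the measures overlap. Genes with several annotated starts took the highest value over them. The share of C and T in the first 10 bases differed less, with a median of 60% in members and 50% in all genes. Counted over single starts it was 50% in both. The windows below are printed 5′ to 3′ on the gene's strand with the longest run in capitals. They are shown so that the longest run near the annotated start can be compared between members at both ends of the measured range, and run length did not order with that range. Such a run need not be the start of the transcript. The first 4 belong to members with a matched start that were among the least depleted in PTBP1 IP, the next 5 to members that were among the most depleted there, and the last 4 to members at the ends of the cKO comparison. Also among the least depleted, but not shown, are the low-count members Rps10, Rpl10l and Rpl39l, with runs of 13, 5 and 9 bases. Where a gene has several annotated starts, as Rpl22, Rpl34 and Rps24 do, the start with the longest run is printed.
Rpl7l1: gtcgaggcgggCCTCTCTaccccgcccggt
Rplp0: ggaccgcctggTTCTCCTataaaaggcaca
Rpl22: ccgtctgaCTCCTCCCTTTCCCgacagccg
Rpl15: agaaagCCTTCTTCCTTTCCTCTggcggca
Rps12: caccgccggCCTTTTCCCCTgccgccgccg
Rpl26: ctcccaaCCTCCTCTCCCCTTTCgctccga
Rpl35: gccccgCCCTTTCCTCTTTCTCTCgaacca
Rps26: agccgccggaTCCTCTTTCgagtcttggct
Rpl34: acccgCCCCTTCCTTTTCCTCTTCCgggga
Rps24: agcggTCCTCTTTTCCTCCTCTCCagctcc
Rpl23: gagtgggcggggCCTCCCgttcatatccca
Rpl28: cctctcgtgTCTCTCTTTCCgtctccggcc
Rps15: cagcccgtaCTTCCTTTTCCgagtaaccgc
The windows lie at chr17:46782670-46782699 (Rpl7l1, minus strand), chr5:115559467-115559496 (Rplp0, plus), chr4:152325679-152325708 (Rpl22, plus) and chr14:18270967-18270996 (Rpl15, minus). Those of the most depleted members lie at chr10:23787181-23787210 (Rps12, minus), chr11:68901507-68901536 (Rpl26, plus), chr2:39005115-39005144 (Rpl35, minus), chr10:128626484-128626513 (Rps26, minus) and chr3:130730330-130730359 (Rpl34, minus). The last 4 lie at chr14:24490711-24490740 (Rps24, plus), chr11:97782404-97782433 (Rpl23, minus), chr7:4792953-4792982 (Rpl28, plus) and chr10:80292447-80292476 (Rps15, plus). Run length was 7 bases in Rpl7l1 and Rplp0, 14 in Rpl22 and 17 in Rpl15, against 11 in Rps12, 16 in Rpl26, 18 in Rpl35, 9 in Rps26 and 20 in Rpl34. Between the members at the ends of the cKO comparison it was 19 in Rps24 and 6 in Rpl23, which were higher in cKO, and 11 in both Rpl28 and Rps15, which were lower. Counting the annotated start as base 1, the run began 4 bases before it in Rpl15, 3 before in Rpl28, 7 before in Rpl35 and 17 before in Rpl34, and at base 4 in Rps26, base 9 in Rps12 and base 12 in Rplp0. It began further off, 52 bases before the start in Rpl26, 39 in Rpl22, 37 in Rps24 and 32 in Rpl7l1, and at base 19 in Rpl23 and base 26 in Rps15. These starts are annotated ones and were not measured in these libraries.

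The 88 members are spread over 19 chromosomes, with 15 on chromosome 7, 8 on chromosome 17, 4 on X and none on Y. Their summed exon length, as given in the deposited table, ran from 399 to 6270 bases with a median of 1647, and 24 members hold at least 1 annotated small nucleolar RNA gene inside them. Levels per length (CPM per kb of exon) had a median of 53.6 in cKO, 59.7 in control, 4.31 in PTBP1 IP and 158 in input. In sorted control cells the highest levels were those of Rplp1 (562 ± 45.6 CPM per kb, SD, n = 3), an acidic protein of the stalk that recruits elongation factors, of Rplp0 (452 ± 21.996), the stalk's base, and of Rpl8 (405 ± 20.8), a core protein near the peptidyl transferase centre. Rpl41 (345 ± 19.0), the shortest ribosomal protein, and Rps15 (318 ± 27.5), of the decoding site, followed. Of neighbours in that order, Rpl41 and Rps15 did not differ beyond their summed SDs. The lowest tested levels in control were those of Rpl22l1 (9.21 ± 2.71 CPM per kb), Rpl36a (9.93 ± 1.32), Rpl27 (11.4 ± 1.23), Rps15a (11.6 ± 0.609) and Rpl10l (13.8 ± 6.81), and no neighbours among these 5 differed beyond their summed SDs.

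In input the highest levels per length were those of Rplp1 (1466 ± 37.2 CPM per kb), Rps12 (1100.3 ± 38.6), Rpl8 (685 ± 15.2), Rplp0 (608 ± 20.5) and Rps26 (582 ± 15.5), of which Rplp0 and Rps26 did not differ beyond their summed SDs. The lowest were those of Rpl3l, the copy of Rpl3 used in muscle, at 0.0636 ± 0.0565 CPM per kb, of Rps10 (0.762 ± 0.144), of the testis copies Rpl10l (0.763 ± 0.116) and Rpl39l (0.884 ± 0.235), and of Rpl13a (17.1 ± 0.608). Rps10, Rpl10l and Rpl39l did not differ beyond their summed SDs. Across the 83 members in both tables, level per length in sorted control and in input went together with a Spearman rho of 0.76 and a Pearson r of 0.73 on the log2 scale, a description across genes that share their exon lengths. The tables were normalized separately and differ in library type, so levels that stand far apart between them were set side by side without a test. Rps10, a protein of the small subunit's head, had 82.3, 78.7 and 112 CPM in cKO and 132, 128 and 112 CPM in control cells, but between 0.632 and 1.34 CPM in PTBP1 IP and between 1.16 and 1.67 CPM in input. Rps12, also of the head, had 0.0700, 4.15 and 9.15 CPM in cKO and 15.1, 20.8 and 0.570 CPM in control cells, but between 504 and 539.8 CPM in input. Its sorted libraries span more than its groups differ. Rpl13a, which takes part in gene-specific translational control beside its place in the ribosome, had 407 to 453 CPM in control cells and 34.9 to 37.5 CPM in input. For these genes the count depends on table or library, and the reason was not tested.

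**Figure D1:**
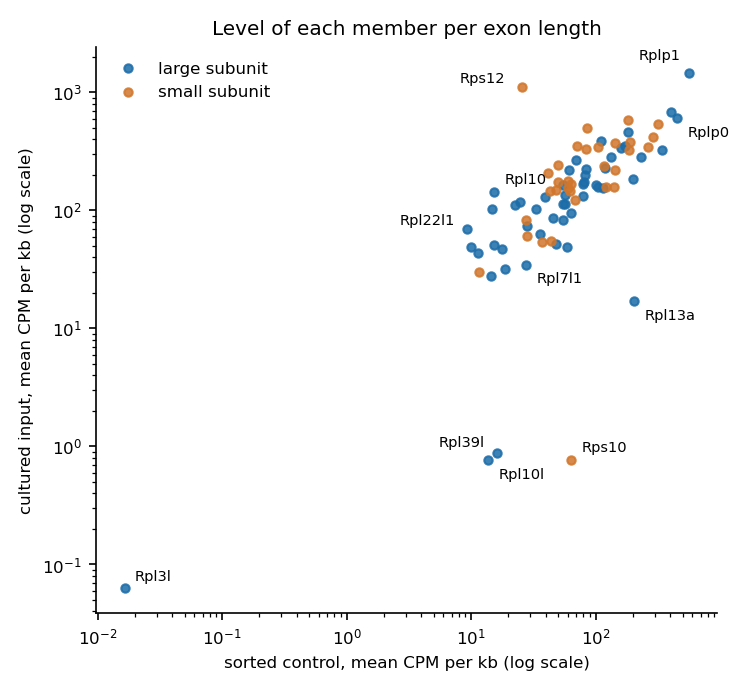
Mean level of each member present in both tables, in CPM per kb of exon on log scales, in sorted control cells (horizontal axis, n = 3) and in cultured input (vertical axis, n = 3), coloured by subunit. Most members lie along 1 band, Rps12 lies above it, and Rpl13a, Rps10, Rpl10l and Rpl39l lie below it.

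The first comparison asked what loss of PTBP1 did to these transcripts in sorted Sertoli cells. Ribosomal protein genes took 0.892%, 0.861% and 1.297% of counts in the 3 cKO libraries, against 1.079%, 1.105% and 1.093% in the 3 control libraries. The first and second cKO libraries lie below the control libraries and the third lies above them, so the groups overlap, and the difference was not significant (two-sided exact permutation test, p = 0.6, where 0.1 is the smallest p that 3 against 3 allows). Without the third cKO library the cKO share was 0.802 of the control share (exact permutation test, p = 0.1, the smallest possible there too). Without the first it was 0.987 (exact permutation p = 0.8) and without the second 1.002 (exact permutation p = 1).

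**Figure D2:**
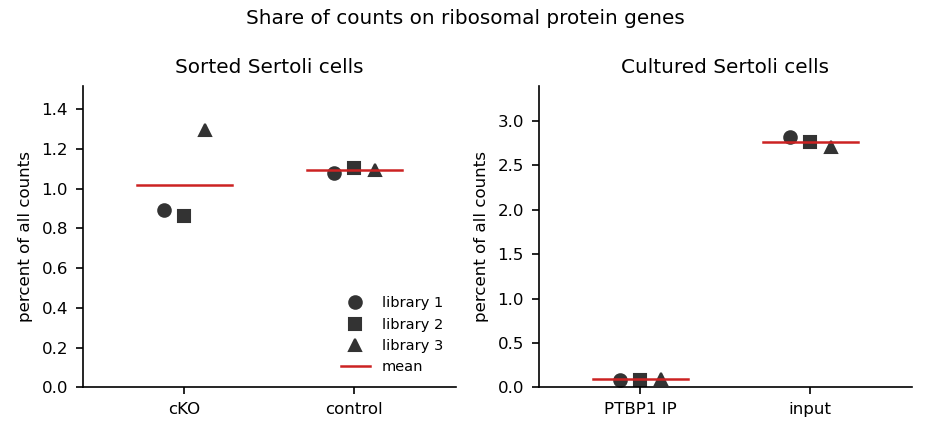
Percent of all counts on ribosomal protein genes, with 1 point per library and a line at the group mean, for cKO and control sorted cells (left panel) and for PTBP1 IP and input of cultured cells (right panel). In sorted cells the third cKO library sits at 1.297% above the control libraries and the first and second below them, and in cultured cells the PTBP1 IP libraries sit between 0.0868% and 0.0933% and the input libraries between 2.71% and 2.81%.

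Gene by gene, 21 of the 82 tested members were lower in cKO and 2 were higher at an adjusted p under 0.05 (edgeR's quasi-likelihood test, Benjamini-Hochberg adjustment over 13405 genes), and 59 did not pass. Scaled by library size alone, which moves the median of all tested genes to 0.17, 7 were lower and 6 higher. Over all tested genes 21.4% were called lower and 17.6% higher (39% in either direction), so the share of members called lower is near the background and the share called higher is under it. The median log2 fold of members was -0.18, against 0.00 over all tested genes, and 59 of 82 fold changes were below 0 whatever their test. The log2 folds of members had an SD of 0.33 and an interquartile range of 0.47, against 0.61 and 0.81 over all tested genes, with a median standard error of 0.15 per member. Groups did not overlap in 18 members that were lower and in 3 that were higher, against 26.8% and 23% of all tested genes. Over the same libraries 13 of 20 Sertoli markers were lower and 1 higher in cKO, and 9 of 12 spermatocyte markers were higher and none lower, and their part in the members' values was not tested.

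The calls rest partly on which cKO library is read. Relative to the control mean, the median member had a log2 ratio of -0.34 in the first cKO library, -0.46 in the second and 0.15 in the third, and 79 of 82 members had their highest cKO value in the third. The exceptions were Rpl7l1, Rpl10l and Rpl39l, all paralogs. Leaving out the third cKO library, 52 members were lower and none was higher by edgeR, also at an unadjusted p under 0.05 (background 22.9% lower and 18.6% higher), with a member median of -0.42, and all 21 members called lower on the full set were among the 52. Without the third library of both groups 56 members were lower and 3 higher (background 26.4% and 22.5%). Of the 21, 7 were lower in each of the 12 other settings tried as well, among them Rpl7, Rpl7l1, Rpl10a, Rpl28, Rplp1 and Rps15.

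Among proteins of the small subunit, 8 of 32 tested members were lower and 1 was higher, with a median log2 fold of -0.11. The background for this count and the sets below was 21.4% lower and 17.6% higher over all tested genes. The share of small-subunit members called lower is near that background. Of the 6 genes of the mRNA exit side 3 fell, among them Rps14 (-0.46) and Rps16 (-0.48), and Rps25, Rps26 and Rps28 did not pass. Rps15, whose tail reaches the decoding site, had 110.4, 98.0 and 162 CPM in cKO against 215, 204 and 181 CPM in control without overlap (-0.70, SE 0.17, adjusted p = 0.00616). Of the 5 genes around mRNA entry and decoding, Rps15 and Rps2 (-0.52) fell, and Rps3, Rps9 and Rps23 did not pass. In the other direction, Rps24, which helps to mature the small subunit's RNA, had 85.04, 81.5 and 109 CPM in cKO against 66.5, 71.7 and 75.9 CPM in control (0.37, SE 0.13, adjusted p = 0.0402). Its cKO libraries all lie above its control libraries, and without the third cKO library its log2 fold was 0.22 (adjusted p = 0.110). Rps25, used by viral internal ribosome entry sites and for repeat-driven translation, had 101, 97.6 and 126 CPM in cKO against 83.1, 88.7 and 96.0 CPM in control, without overlap and without passing the test (0.28, adjusted p = 0.0914). Of the 18 members linked to Diamond-Blackfan anaemia in humans, an inherited failure of red cell production, 2 were lower, among them Rps10 (-0.44), Rps24 was higher, and 15 did not pass. Rpsa, the laminin-binding protein of the small subunit, had 79.9, 86.3 and 144 CPM in cKO against 137, 132 and 125 CPM in control and did not pass (-0.34, adjusted p = 0.176).

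Among proteins of the large subunit, 13 of 50 tested members were lower and 1 was higher, with a median log2 fold of -0.21. Here too the share called lower is near the background (21.4% lower and 17.6% higher over all tested genes). Stalk genes included 2 of the 13. Rplp1 had 139.6, 128 and 223 CPM in cKO against 302, 283 and 257 CPM in control, without overlap (-0.78, SE 0.18, adjusted p = 0.00562). Rplp0 had 479.6, 473 and 686 CPM in cKO against 741, 789 and 718 CPM in control (-0.46, SE 0.14, adjusted p = 0.0258). Rplp2, the partner of Rplp1 in the stalk, had 118, 97.8 and 173 CPM in cKO against 164, 164 and 166 CPM in control, where the third cKO library overlaps the controls (-0.35, adjusted p = 0.133). Rpl28, a surface protein of the subunit, had 99.9, 93.1 and 148 CPM in cKO against 193, 199 and 188 CPM in control (-0.77, SE 0.16, adjusted p = 0.00258). Rpl10a, of the mobile L1 stalk near the site where tRNA leaves, had 82.7, 74.6 and 112 CPM in cKO against 139.7, 149 and 131 CPM in control (-0.64, SE 0.14, adjusted p = 0.00449). Neither of these genes had overlapping groups. Rpl23, on the face toward the small subunit, was the single large-subunit member called higher, with 241, 226 and 304 CPM in cKO against 190.4, 199 and 216 CPM in control (0.35, SE 0.13, adjusted p = 0.0445). Without the third cKO library its log2 fold was 0.21 (adjusted p = 0.104). Of the 8 proteins around the exit of the nascent peptide tunnel, Rpl19 fell (-0.42) and 7 did not pass, and neither Rpl5 (0.24, adjusted p = 0.149) nor Rpl11 (-0.02, adjusted p = 0.906), which with 5S RNA bind MDM2 and tie ribosome assembly to p53, passed. Other large-subunit members called lower included Rpl3, Rpl8, Rpl13, Rpl13a and Rpl41, between -0.38 and -0.58, with Rpl7 and Rpl7l1.

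Paralogs were read beside the genes they derive from. Rpl7l1, found in assembling large subunits of human cells, had 48.8, 48.8 and 48.3 CPM in cKO against 62.3, 71.5 and 81.1 CPM in control, and Rpl7 had 143, 140.2 and 173 CPM in cKO against 227, 233 and 212 CPM in control. Both fell, each with a log2 fold of -0.56 and no overlap. The other tested paralogs did not pass. Rpl22l1, which in zebrafish acts with Rpl22 in splicing, had 11.3, 11.9 and 15.8 CPM in cKO against 8.35, 12.2 and 6.9998 CPM in control (0.50, adjusted p = 0.110), beside a log2 fold of -0.05 for Rpl22. Rpl10l, the retrocopy that serves male meiosis in mouse while the X-linked Rpl10 is silent, had 19.8, 22.8 and 19.2 CPM in cKO against 6.92, 14.5 and 20.8 CPM in control (0.55, adjusted p = 0.162). Its highest control value falls in the third control library, the control library with the most counts on spermatocyte markers (509.6 CPM against 340 and 362 CPM). Their part in the Rpl10l value was not tested. Rpl39l, the other testis copy, had 15.4, 14.5 and 14.2 CPM in cKO against 10.2, 12.04 and 18.3 CPM in control (0.12, adjusted p = 0.683). Rps27l, a p53 target, had a log2 fold of 0.26 (adjusted p = 0.191), beside -0.01 for Rps27. Of the 4 X-linked members with an autosomal copy, Rps4x fell (-0.43, adjusted p = 0.0366), and Rpl10 (-0.13), Rpl39 (0.10) and Rpl36a (0.16) did not pass, nor did Rps3a1 (-0.11). Rpl3l and Rpl6l had 0 to 2 counts per sorted library, and Rps4l, Rps3a2, Rps3a3 and Rps12l1 had none, which allows up to 3 counts per library, so no fold was computed.

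To ask which members departed from the rest, libraries were rescaled so that the median member was level between groups. With all 6 libraries no member passed in either direction by edgeR (background 17.9% above and 3.86% below), at a median standard error of 0.22, while 8 lay above and 5 below at an unadjusted p under 0.05. DESeq2 gave 3 above and 4 below at the same scaling. Without the third cKO library the median standard error was 0.11, and 16 members lay above and 14 below the median member (background 39.2% above and 7.31% below). Without the third library of both groups it was 18 above and 20 below (background 43.5% and 10.4%), with 15 of the 16 and the same 14 among them. Setting the median member level put the median of all tested genes at 0.39 and 0.38 in these settings. The scaling thus shifts the background upward, and the shares of members above and below cannot be judged against it. The third cKO library was singled out from the values of these same members, so adjusted p-values without it are descriptive. The values that follow are those without the third cKO library alone. Members above included Rps24 (0.62, adjusted p = 0.000452), Rpl23 (0.61, adjusted p = 0.000308), Rps25 (0.55, adjusted p = 0.000917) and Rpl5 (0.51, adjusted p = 0.00179). Those below included Rplp1 (-0.68, adjusted p = 0.000349), Rpl28 (-0.61, adjusted p = 0.000357) and Rps15 (-0.55, adjusted p = 0.00164). The low-count paralogs Rpl10l (1.002, SE 0.32) and Rpl22l1 (0.73, SE 0.25) were above as well. The others above included Rps27l, Rpl34, Rpl30, Rpl27, Rpl24, Rps15a, Rps23, Rpl4 and Rpl14, between 0.26 and 0.48, and the others below included Rpl10a, Rpl13, Rpl41, Rps2, Rpl13a, Rps16, Rps14, Rps19 and Rpl7, between -0.43 and -0.27. In each of the 3 cKO libraries 35 members stayed under and 34 stayed over that library's own median member. These ratios share the control mean, so the count describes an order of members and carries no test.

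**Figure D3:**
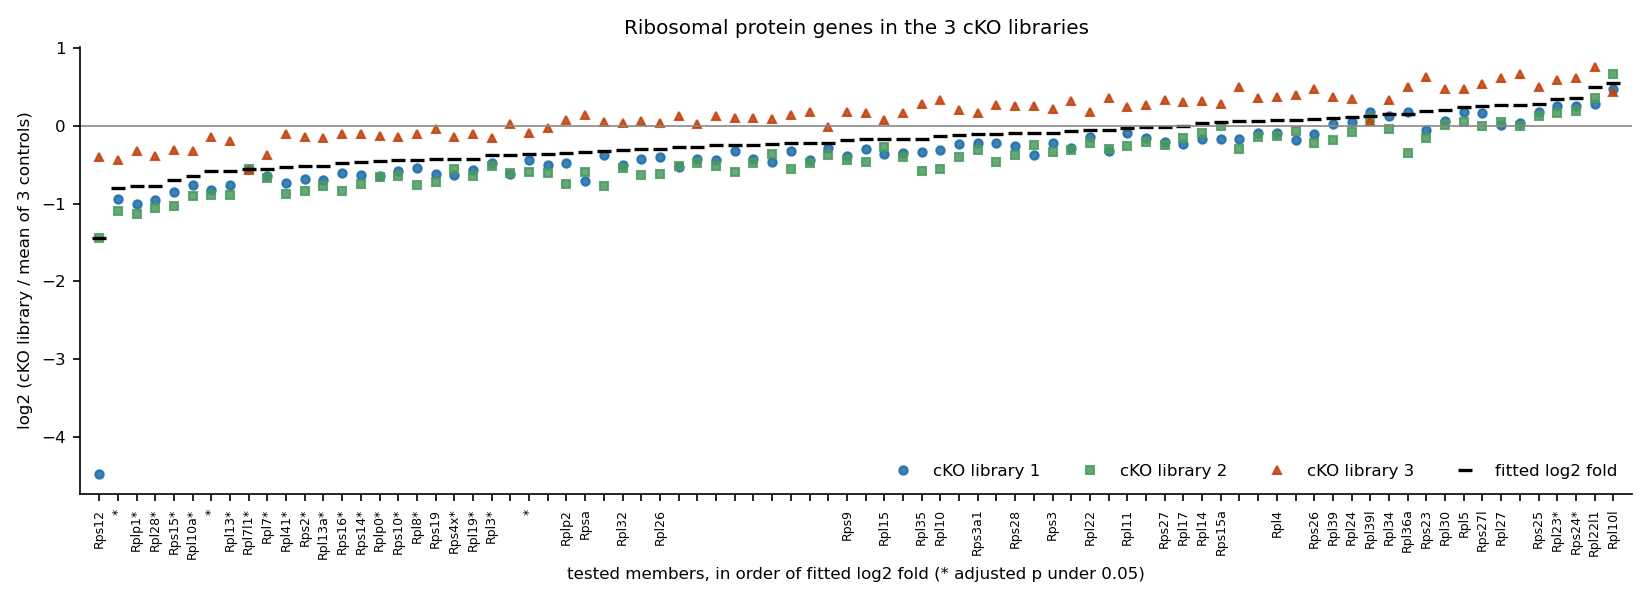
Log2 ratio of each cKO library to the mean of the 3 control libraries for the 82 tested members, ordered by fitted log2 fold (black bars), with an asterisk at an adjusted p under 0.05 and names for members the text describes. Triangles of the third cKO library lie above the other 2 cKO libraries in 79 members. The order from Rplp1 to Rps24 runs the same way in each. That order is fitted from these same libraries and all ratios share the control mean, so the common slope carries no test.

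Across the 82 members, the log2 fold in cKO went down with the level in control (Spearman rho -0.60), a value that shares the control counts on both axes. With the level in input, from other libraries, it was -0.39, and without the third cKO library -0.40. It did not go with exon length (0.02), nor, in 62 members with a matched start, with the share of C and T in the first 10 bases (-0.03) or the longest C and T run (-0.01). Members with and without a small nucleolar RNA gene inside had medians of -0.17 and -0.18.

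The other genes of the machinery were counted over lists, beside a background of 21.4% lower and 17.6% higher over all tested genes. Of the 4 genes of cytosolic ribosomal proteins that the naming rule leaves out 3 fell, among them Rack1, a signalling scaffold on the small subunit (-0.71, adjusted p = 0.00112 by edgeR), and Fau, which encodes a ribosomal protein fused to a ubiquitin-like protein (-0.50, adjusted p = 0.0289), and Rpl36al did not pass (0.14). Proteins of the mitochondrial ribosome included 25 lower and 9 higher of 78 (median -0.28, with Mrps7 at -0.85). Assembly factors went both ways. Of 27 for the small subunit, 10 were lower and 12 higher, among them Nol6 (-0.90) and Mphosph10 (1.07), and of 34 for the large subunit, 6 were lower and 11 higher, among them Bop1 (-0.95) and Gnl3 (1.02). Of 12 nucleolar RNP and chaperone genes, 3 were lower and 5 higher, with Npm1 at 0.97 and Dkc1, the pseudouridine synthase, at 1.03. RNA polymerase I genes counted 5 lower (Polr1b -0.81) and 5 higher (Taf1d 1.23) of 16. Other mRNAs with a TOP start counted 5 lower, with the elongation factor Eef2 at -0.91, and 5 higher, with the small nucleolar RNA host Gas5 at 1.02, of 18 (median 0.00). Of 9 regulators of TOP mRNAs, 2 were lower, among them the mTOR target Eif4ebp2 (-0.998), and 4 higher, among them the La protein gene Ssb (1.23). Of 12 ribosome surveillance genes 2 were lower and 2 higher, with Nemf at 0.997.

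The second comparison asked which RNAs came down with PTBP1 in cultured WT Sertoli cells. Ribosomal protein genes took 0.0868%, 0.0878% and 0.0933% of counts in PTBP1 IP, against 2.81%, 2.76% and 2.71% in input, 30.9-fold lower. The groups lie far apart, and the two-sided exact permutation test gave p = 0.1, the smallest possible. Of 82 tested members 81 were lower in PTBP1 IP and none was higher by edgeR (background 44.8% lower and 43% higher of 12854 tested genes), none was higher at an unadjusted p under 0.05, and neither DESeq2 nor any other setting tried called 1 higher. The median log2 fold was -5.17, against -0.03 over all tested genes, and 65 members were at least 16-fold lower. Counts are relative within a library, so these values say how members stand to other RNAs of the same library, and with no control antibody the RNA that adheres without PTBP1 was not measured.

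Members differed widely in how far they were depleted. Their log2 folds ran from -7.44 to -0.46 with an SD of 1.18, against a median standard error of 0.067. One lay under -7, 12 between -7 and -6, 33 between -6 and -5, 19 between -5 and -4, 12 between -4 and -3, 4 between -3 and -2, and 1 above -2. Over the 3 PTBP1 IP libraries the ratio of a member varied by a median range of only 0.20. Over all tested genes the SD was 1.496, larger than among members. When libraries were scaled to the median member, 36 members lay above and 35 below it at an adjusted p under 0.05 (edgeR), so 71 of 82 stood apart from the median member. Over all tested genes 98.8% lay above and 0.397% below at that scaling (99.2% in either direction), so the adjustment is light there. Among the 79 members with at least 5 CPM in input the SD was 1.001, and the extremes, Rps12 and Rpl7l1, were 36.1-fold apart.

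**Figure D4:**
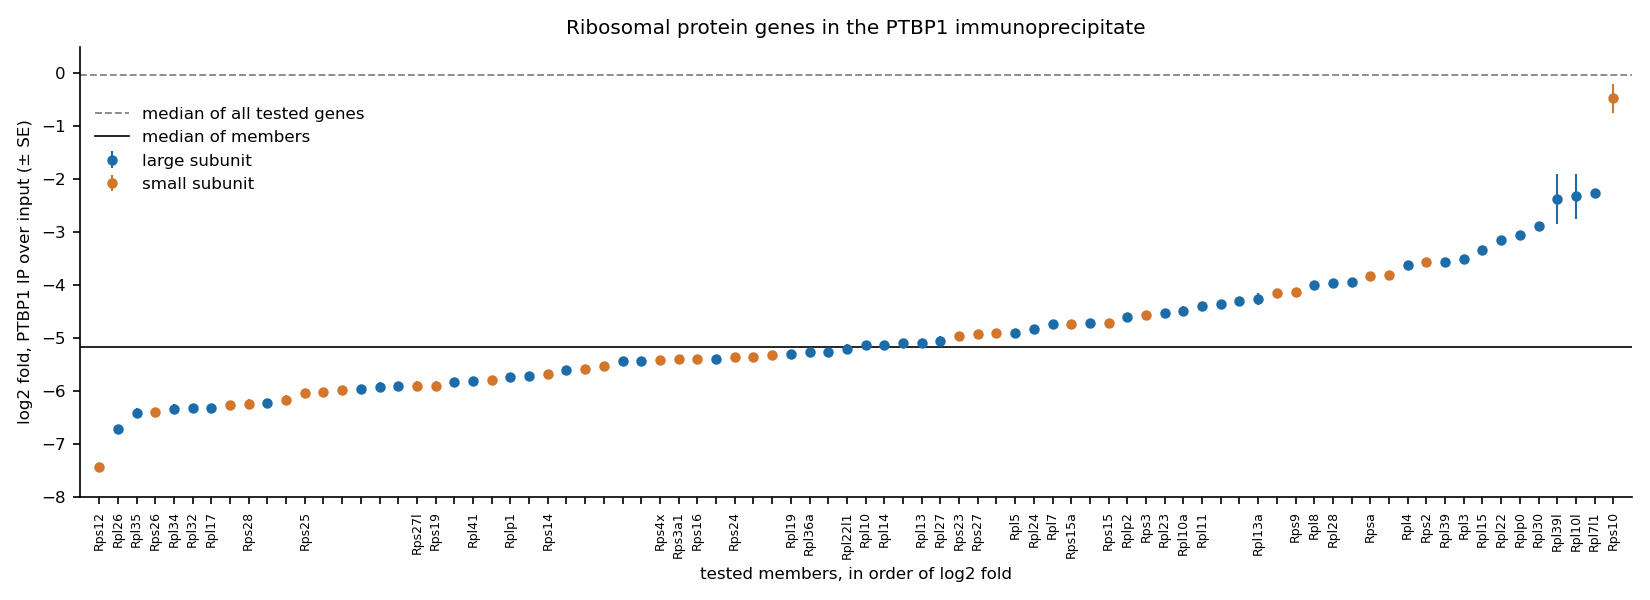
Log2 fold of PTBP1 IP over input for the 82 tested members with its standard error, in order and coloured by subunit, with names for members the text describes and with the median of members (solid line, -5.17) and of all tested genes (dashed line, -0.03). Rps12 is the lowest and Rps10 the highest, and bars are visible mainly for the low-count members Rps10, Rpl10l and Rpl39l.

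The 32 tested genes of the small subunit had a median log2 fold of -5.40, with 31 lower (background 44.8% lower). Rps12 had 2.88, 2.57 and 3.58 CPM in PTBP1 IP against 528, 539.8 and 504 CPM in input, 174-fold lower (-7.44, SE 0.08). Rps26, which contacts the mRNA upstream of the start codon, had 2.36, 3.06 and 3.79 CPM in PTBP1 IP against 265, 252 and 264 CPM in input, 84.9-fold lower (-6.41, SE 0.09). These were the small-subunit members furthest from input. At the other end, Rpsa had 45.6, 45.1 and 47.8 CPM in PTBP1 IP against 661, 675 and 627 CPM in input (-3.82). Rps10 was the member that did not pass, with 1.34, 1.24 and 0.632 CPM in PTBP1 IP against 1.16, 1.597 and 1.67 CPM in input (-0.46, SE 0.27, adjusted p = 0.119). Its groups overlap, and it has hardly any counts in either group. By position, the 5 genes of mRNA entry and decoding lay between -4.96 and -3.57, with Rps2 at the upper end, and the 6 of the mRNA exit side had a median of -5.86. Of the 18 members linked to Diamond-Blackfan anaemia in humans 17 were lower, with a median of -5.40.

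All 50 tested genes of the large subunit were lower (background 44.8% lower), with a median log2 fold of -5.08. Rpl26, at the tunnel exit and a regulator of p53 translation, had 2.36 CPM in each PTBP1 IP library against 257, 244 and 248 CPM in input, 105-fold lower (-6.72, SE 0.07). Rpl35, its neighbour at the tunnel exit, had 1.89, 1.32 and 1.602 CPM in PTBP1 IP against 138, 145 and 132 CPM in input (-6.42, SE 0.09), and Rpl34, Rpl32 and Rpl17 were at -6.33. The 8 genes of the tunnel exit had a median of -5.98 and included Rpl22 (-3.15) and Rpl39 (-3.57). Rpl30, which in yeast binds and represses its own transcript, had 13.4, 12.5 and 13.2 CPM in PTBP1 IP against 100.2, 89.6 and 97.4 CPM in input, 7.34-fold lower (-2.88, SE 0.07). Rplp0 had 114, 124 and 127 CPM in PTBP1 IP against 1047, 981 and 999.6 CPM in input, 8.28-fold lower (-3.05, SE 0.05). Rplp0 was thus the most abundant member left in PTBP1 IP. The 3 stalk genes stood apart from one another, with Rplp1 at -5.74, from 13.9, 13.5 and 13.5 CPM in PTBP1 IP against 753, 719 and 723 CPM in input, and Rplp2 at -4.61. Rpl15 (-3.34) and Rpl3 (-3.50), of the subunit's core, and Rpl4 (-3.63), which reaches into the tunnel, were among the less depleted. Rpl5 (-4.91) and Rpl11 (-4.39) lay above the median member, by 0.28 and 0.80 at the member scaling (adjusted p = 0.0044 and 1.36e-10, edgeR).

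Partners of a paralog pair could lie far apart here too. Rpl7l1 had 19.1, 17.6 and 19.7 CPM in PTBP1 IP against 92.0, 89.7 and 89.8 CPM in input, 4.82-fold lower (-2.27, SE 0.06), and Rpl7 had 21.7, 23.0 and 23.0 CPM in PTBP1 IP against 583, 625 and 602 CPM in input, 26.7-fold lower (-4.74, SE 0.05). Their levels in PTBP1 IP are close, while Rpl7 is far higher in input. Rpl22l1 was at -5.20 beside Rpl22 at -3.15, and Rps27l at -5.90 beside Rps27 at -4.93. Rpl10l (-2.32, SE 0.43) and Rpl39l (-2.38, SE 0.47) rest on under 1 CPM in every cultured library, beside -5.14 for Rpl10 and -3.57 for Rpl39. Rps4x (-5.42) and Rps3a1 (-5.40) lay a little under the median member (adjusted p = 0.00451 and 0.0123, edgeR at the member scaling). Rpl36a (-5.27) did not pass against it (adjusted p = 0.509). Rpl3l had 0 to 3 counts per library and was not tested, and Rpl6l, Rps4l, Rps3a2, Rps3a3 and Rps12l1 were not analysed in cultured cells.

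Longer members tended to be less depleted. Across the 82 members the log2 fold went with exon length with a Spearman rho of 0.40 (Pearson r 0.33), and with 0.46 when Rps10, Rpl10l and Rpl39l, which had under 5 CPM in every cultured library, were left out. With gene span it was 0.24. With level in input the rho was -0.02 and the Pearson r -0.42, and r was 0.046 without Rps10, Rpl10l and Rpl39l, so that r rests on these 3. In 62 members the rho was near 0 with the share of C and T in the first 10 bases (0.03) and with the longest C and T run (-0.09). The shared libraries and exon models make these descriptions across genes. Members with a small nucleolar RNA gene inside had a median of -5.002 (24 members) and those without -5.29 (58 members).

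**Figure D5:**
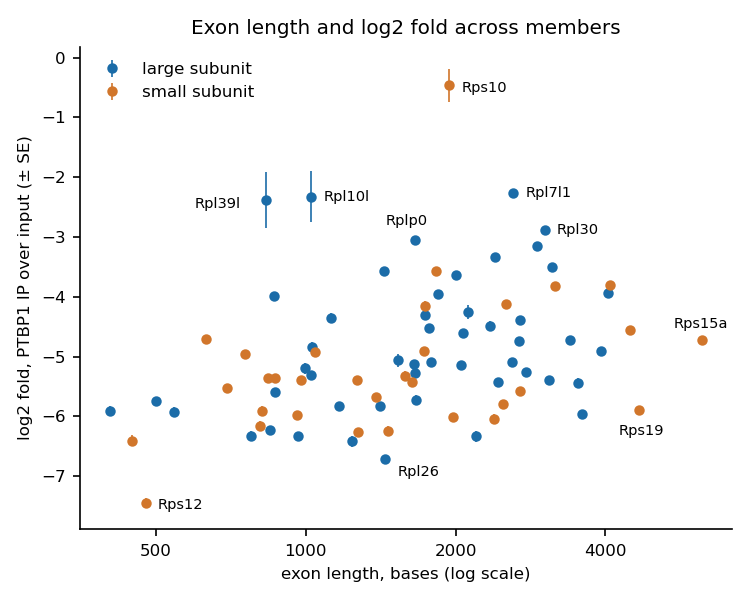
Log2 fold of PTBP1 IP over input, with its standard error, against summed exon length in bases (log scale) for the 82 tested members, coloured by subunit. Short members such as Rps12 lie low and several long members, such as Rpl7l1 and Rpl30, lie high, with wide scatter at each length.

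Other lists of the machinery differed in their values here, given for these libraries with no test of the difference between lists. The background was 44.8% lower and 43% higher over all tested genes. Proteins of the mitochondrial ribosome included 71 lower and 1 higher of 77 (median -2.91, with Mrpl52 at -5.004). Other mRNAs with a TOP start included 15 lower and 2 higher of 17 (median -2.16), among them Tpt1 (-5.91), a growth-linked calcium-binding protein, and the elongation factor subunits Eef1b2 (-4.93) and Eef1a1 (-3.15). Assembly factors of the small subunit counted 19 lower and 10 higher of 29 (median -0.79), those of the large subunit 29 lower and 3 higher of 35 (median -1.43), and nucleolar RNP and chaperone genes 10 lower and 2 higher of 13 (median -1.71). RNA polymerase I genes counted 8 lower and 5 higher of 16 (median -0.07), and surveillance genes 8 lower and 4 higher of 13 (median -0.40). Of 9 regulators of TOP mRNAs 4 were lower, with Cnbp at -3.26, and 5 higher, with Eif4ebp2 at 2.01 (median 0.21). Of the cytosolic ribosomal genes outside the naming rule, all 4 were lower, among them Fau (-5.05), Rpl36al (-3.03) and Rack1 (-0.99).

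The 2 comparisons share no libraries, so their fold changes could be set side by side over the 82 members tested in both. They did not go together (Spearman rho -0.08, and -0.02 without the third cKO library). Rplp1, Rpl28 and Rps15, among the members lowest in cKO, had PTBP1 IP log2 folds of -5.74, -3.96 and -4.71, and Rps24 and Rpl23, the members called higher in cKO, had -5.36 and -4.53.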

How the data were processed

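RNA of sorted and cultured mouse Sertoli cells was sequenced in 12 libraries. The deposited values used are read counts per gene made by the authors, in 1 table for sorted and 1 for cultured cells, and 84 other columns of per-library values were not used. The submitters' processing notes name build mm10 and, without saying what each did, HTSeq, STAR, Bowtie2 2.3.5.1, DESeq2, cutadapt and bcl2fastq 2.20. How reads shared with pseudogenes were treated is not given in the sources used here. Rows named as ribosomal protein pseudogenes (-ps), 276 for sorted and 5 for cultured cells, together held 0 to 16 counts per library. Pseudogenes under other names were not counted, so near-identical copies remain uncertain. Library names of sorted cells carry no replicate number and were numbered by column.

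Counts were fitted per table over its 6 libraries with edgeR 4.0.16 (R 4.3.3, limma 3.58.1), filterByExpr, TMM scaling and the robust quasi-likelihood test, with Benjamini-Hochberg adjustment over all tested genes and a threshold of 0.05. A second scaling set the median member level between groups. Log2 ratios of single libraries used a pseudocount of 0.5 CPM, and SE is the log2 fold over the square root of F. The fits were also run on simulated data, and the outcome is not given here. No libraries were duplicates (smallest chi-square per degree of freedom 2.13). Alternatives were DESeq2 1.42.0 and its size factors, library size alone, TMM without members, no filter, leaving out each library, and a replicate block. Named members are the paralogs with their partners, stalk and 5S genes, the 6 highest and lowest folds and the 5 highest and lowest levels, with up to 4 genes per other list. Members and lists were chosen with earlier results of these data known. Some members that the rule names are not reported here. Further examples from the order of folds were named after their values were seen. Precision is set by 3 libraries per group and the depths given above.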

Additional observations from a re-analysis of the deposited data

How the results depend on the processing

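In PTBP1 IP against input, 81 members were lower under each setting except library size alone (82, with Rps10 at adjusted p = 0.0089), and the median log2 fold was -5.53 with library size alone and -5.13 without a filter. With a replicate block it stayed at -5.17, with 81 lower and 36 above and 35 below the median member. Same-numbered libraries correlated at 0.190, 0.074 and 0.237 in their deviations, against -0.225 to 0.079 between libraries of other numbers. Whether the numbers mark pairs is not given, and the main fit has no block. With a block by the number that the first and second library names share, the call was the same for all 82 members. For sorted cells no such fit was made. No paired analysis was possible because the sorted columns carry no replicate number.

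In cKO against control, library size alone gave 6 higher and 7 lower with a member median of -0.0058 beside 0.17 over all genes. Without the third library of both groups 56 members were lower and 3 higher (median -0.41), and 10 of 82 changed sign, of which Rpl12 (-0.36) and Rps26 (-0.27) were called lower. Without the third cKO library 11 changed sign, and with library size alone 18. Leaving out 1 library gave 7 to 52 lower, 0 to 2 higher and a median of -0.42 to -0.074. At the member scaling, leaving out 1 library gave 0 to 16 above and 0 to 14 below, no filter 1 above, DESeq2 3 above and 4 below, and leaving out the third library of both groups 18 above and 20 below. The cause of these shifts was not tested. Depth limits Rps10, Rpl10l and Rpl39l in cultured cells (under 5 CPM in every library) and Rps12 in sorted cells (1 count in the first cKO and 7 in the third control library).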
